A study of Mus musculus with 20 samples.

Results

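The 42 genes described here encode parts of the lysosome, the acidic compartment in which cells degrade what they take up and what they no longer need. They were listed by name and not by a cutoff on measured values, though with earlier results of these data known. The list holds 6 membrane proteins and transporters, 15 glycosidases and sulfatases, 6 lipid hydrolases and their activators, 3 genes for peptidases and progranulin, 4 subunits of the membrane sector V0 of the proton pump (V-ATPase), 5 genes of its cytosolic sector V1 with an accessory protein, and 3 transcription factors of the TFEB family. Cathepsins were left off the list. All 42 were found by symbol, each under 1 identifier, among the 39017 Ensembl identifiers counted. Total RNA had been sequenced from microglia and from astrocytes of the left forebrain, the injured side, of adult male C57BL/6 mice. The mice had either lateral fluid percussion injury (FPI), in which a pulse of fluid strikes the exposed dura, or sham surgery, which left out the pulse alone, and tissue was taken 7 days later. Microglia were sorted as CD11b-positive cells with intermediate CD45, and astrocytes by the surface antigen ACSA-2. Each cell type and condition had 5 libraries, 20 in all, and each library came from 1 animal without pooling. The libraries held 5623349 to 13110857 counted reads in sham microglia, 6890710 to 8396868 in FPI microglia, 7998479 to 10917112 in sham astrocytes and 6470553 to 10194999 in FPI astrocytes. The data allowed 4 comparisons, which asked how far the lysosomal genes differ between the cell types, whether they changed after FPI in each cell type, and whether that change differed between them.

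Lysosomal hydrolases are made in the endoplasmic reticulum, marked with mannose phosphate and delivered to an acidic lumen, where each removes a particular bond from sugars, lipids or proteins. The V-ATPase supplies the protons, heavily glycosylated membrane proteins line the compartment, and transporters carry the products out. TFEB, TFE3 and MITF are related transcription factors that enter the nucleus when lysosomes are stressed or nutrients are short, and bind a short sequence found near many lysosomal genes. Microglia are the phagocytes of the brain and clear debris and myelin after injury, and inherited loss of several of these enzymes causes storage disease with prominent changes in glia.

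The sorted libraries carried the markers of their labels. The 10 microglia markers, led by Csf1r, summed to 25631 ± 1938 CPM (reads scaled to a common library size by TMM, mean ± SD, n = 5) in sham microglia and to 133 ± 30.9 CPM in sham astrocytes. In astrocytes most of that sum was Sall1 (92.1 CPM), and each sham astrocyte library had at least 1 of Aif1, Itgam and Siglech at 0. The 10 astrocyte markers, led by Slc1a2, summed to 23283 ± 9215 CPM in sham astrocytes, and in sham microglia the sum was 317 ± 55.7 CPM. Summed markers of the other cell type had higher means after FPI. Microglia markers summed to 190 ± 56.1 CPM in FPI astrocytes, where the 7 tested had a median log2 fold change of 2.96 and 4 had an unadjusted p under 0.05 upward. Astrocyte markers summed to 446 ± 158 CPM in FPI microglia, where 5 of 10 had an unadjusted p under 0.05 upward and 1, Gfap, was called (6.29 ± 5.14 to 42.1 ± 35.3 CPM). In FPI microglia themselves the microglia markers summed to 22960 ± 3721 CPM, and 5 of 10 were lower at an unadjusted p under 0.05.

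Some libraries stood apart from others of their group. The names of microglia libraries 1 to 3 and 4 to 5 belong to different series, and border macrophage markers, led by Mrc1, summed to 150 to 478 CPM in libraries 1 to 3 of both conditions and to 18.9 to 60.6 CPM in libraries 4 and 5. Among sham astrocytes, libraries 4 and 5 lay below libraries 1 to 3 for 18 of the 42 members and above them for 4, against 20.4% and 18.4% of the 13741 genes tested in astrocytes. Astrocyte markers summed to 34028, 27720 and 26767 CPM in sham astrocyte libraries 1 to 3 and to 10935 and 16963 CPM in libraries 4 and 5. Oligodendrocyte markers summed to 8068, 3429, 1736, 18546 and 8244 CPM in the 5 sham astrocyte libraries and to 8253 ± 3353 CPM in FPI astrocytes. Markers of oligodendrocyte precursors (730 ± 373 CPM) and of endothelium and mural cells (2988 ± 1797 CPM) were also present in sham astrocytes. Neuronal markers (10.9 to 41.8 CPM) and monocyte and neutrophil markers (30.9 ± 13.2 CPM, nearly all Vcan) were low there. In sham microglia the sums were 173 ± 22.1 CPM for oligodendrocytes, 102 ± 8.75 CPM for endothelium and mural cells, 12.7 ± 1.39 CPM for oligodendrocyte precursors, 9.06 ± 2.95 CPM for monocytes and neutrophils and 5.54 ± 2.19 CPM for neurons. In FPI microglia the oligodendrocyte sums were 201, 303, 209, 247 and 207 CPM, all above the 138 to 195 CPM of the sham libraries, and 3 of 7 tested markers were upward at an unadjusted p under 0.05, 1 of them called. Markers of oligodendrocyte precursors summed to 20.1 ± 5.98 CPM there, where of 4 tested 1 was called upward and 1 other was lower at an unadjusted p under 0.05. Whether this has a part in the member values in FPI microglia was not tested. FPI astrocyte library 5 has a name with the suffix M, like those of microglia libraries 1 to 3, while the other astrocyte names have A. Names of microglia libraries 4 and 5 end in J-A. In FPI astrocyte library 5 astrocyte markers summed to 16525 CPM and microglia markers to 210 CPM. Going by animal numbers, both cell types were taken from 3 of the mice, of which 2 were sham and 1 was FPI, and FPI astrocyte libraries 2 and 5 share a number.

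Lysosomal transcripts took a larger share of the RNA in microglia than in astrocytes. The members together reached 13154, 11433, 11996, 11845 and 12800 CPM in the 5 sham microglia libraries and 5349, 4210, 3968, 4292 and 3459 CPM in the 5 sham astrocyte libraries, with no overlap. In FPI microglia the sums were 14891, 14763, 11451, 14627 and 17614 CPM, so that 4 of the 5 exceeded every sham microglia library and library 3 lay within the sham range. In FPI astrocytes they were 4720, 4262, 3665, 3579 and 3482 CPM, all within the sham range. A few members held a large part of the microglia sums. In sham microglia Lgmn was at 2844 to 3205 CPM, Psap at 1750 to 2079 CPM and Grn at 1176 to 1638 CPM. In sham astrocytes they were at 93.0 to 146, 726 to 1224 and 54.3 to 91.2 CPM. In FPI microglia Grn was at 1646 to 3084 CPM. Read per kilobase of exon, which allows genes of different length to be compared, the peptidase gene Lgmn (1278 ± 65.2 CPM per kb), the lipid activator Psap (695 ± 58.0), Grn (397 ± 48.9), Lamp1 (241 ± 33.6) and Hexa (223 ± 15.6) were high in sham microglia. In sham astrocytes Psap (335 ± 69.6 CPM per kb) and Lamp1 (215 ± 40.2) were followed by Lgmn (51.9 ± 10.1) and Gaa (43.6 ± 16.9). V-ATPase and TFEB family genes were lower on that scale. In sham microglia the highest were Atp6ap1 (42.1 ± 3.02 CPM per kb) and Atp6v0c (30.4 ± 2.21) for the pump and Tfe3 (16.5 ± 0.790) among the factors. In sham astrocytes they were Atp6v0d1 (33.0 ± 6.51 CPM per kb), Atp6ap1 (26.9 ± 8.14) and Tfeb (6.66 ± 2.37). In bulk RNA of this kind, fewer cells of a type and less RNA per cell cannot be told apart.

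Sham microglia and sham astrocytes differed in 27 of the 41 members that passed the filter on low counts, 25 of them higher in microglia and 2 higher in astrocytes. A gene was called where edgeR's quasi-likelihood test gave a Benjamini-Hochberg adjusted p below 0.1 with an absolute log2 difference above 0.6. Differences between the cell types were common among all genes as well: of the 15077 tested, 60.9% were called, 25.3% higher in microglia and 35.6% higher in astrocytes. The share of members called in either direction (65.9%) was therefore near that of all genes. By direction they differed: 25 of 41 members were higher in microglia, against 25.3% of all genes. Higher in astrocytes were 2 of 41, against 35.6%. The median log2 difference, microglia minus astrocytes, was 0.75 over the members and -0.15 over all genes tested. Of the 8 tested genes of the proton pump 2, Atp6v0c and Atp6ap1, were called. Atp6ap1 (0.65) was not called without sham astrocyte library 3 (0.54), with DESeq2 or RLE factors (0.57 each) or with a stricter filter on low counts (0.51). Atp6v0c (0.71) was not called under that filter (0.57) or without astrocyte libraries 4 and 5 (0.58).

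**Figure D1:**
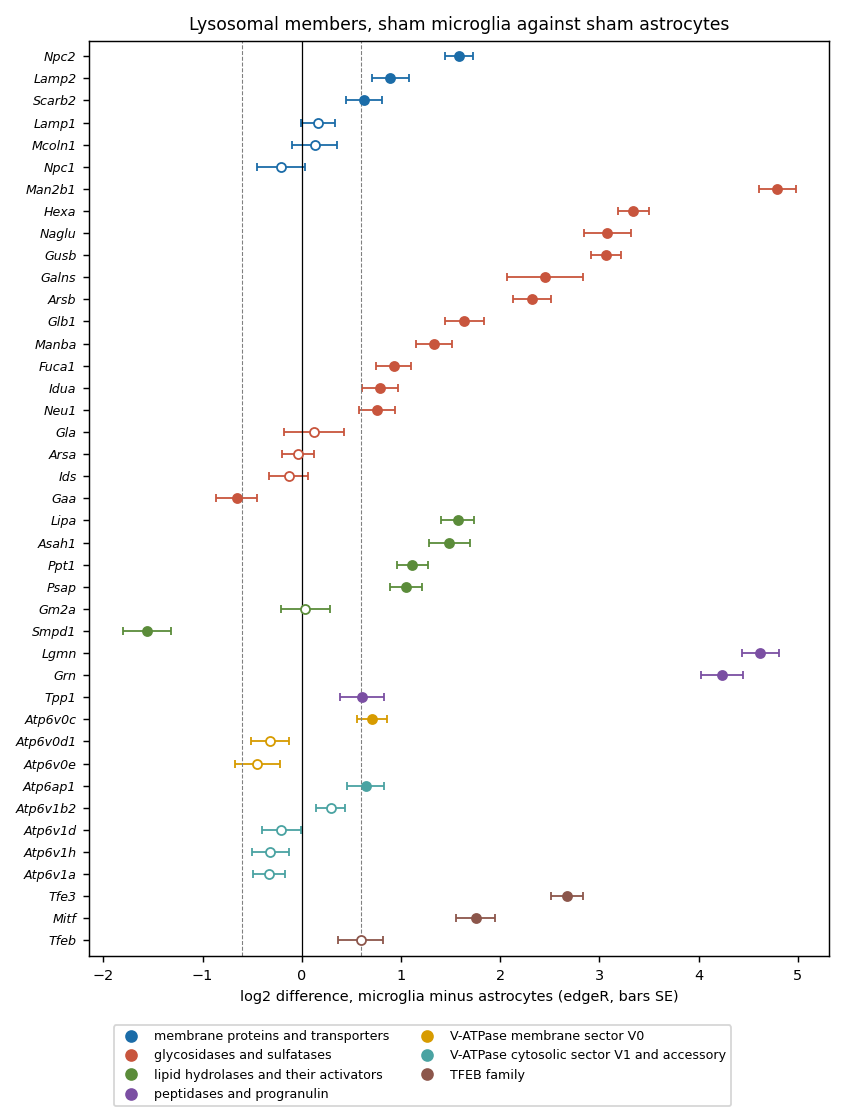
Log2 difference between sham microglia and sham astrocytes for the 41 tested members, grouped by role, with bars of 1 SE from edgeR; filled points were called and dashed lines mark a difference of 0.6 either way. The points run from -1.56 for Smpd1 to 4.79 for Man2b1, and 25 of the 27 filled points lie to the right, on the microglia side.

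Glycosidases and sulfatases held many of the larger differences, with 11 of 15 higher in microglia and 1 higher in astrocytes. Man2b1, the lysosomal alpha-mannosidase, was at 861 ± 35.7 CPM in sham microglia and 31.1 ± 5.63 CPM in sham astrocytes, a log2 difference of 4.79 ± 0.18 (SE; edgeR adjusted p = 3.02e-14). The alpha chain of beta-hexosaminidase, Hexa, was at 445 ± 31.2 against 43.9 ± 7.95 CPM and differed by 3.34 ± 0.15. Both cleave terminal sugars from glycoproteins or gangliosides. Naglu, which acts on heparan sulfate, differed by 3.08 ± 0.24 (108 ± 17.4 against 12.9 ± 4.83 CPM), and the beta-glucuronidase Gusb by 3.07 ± 0.15 (163 ± 14.8 against 19.5 ± 3.14 CPM). Arsb, a sulfatase of dermatan sulfate, and the beta-galactosidase Glb1 differed by 2.32 ± 0.19 and 1.64 ± 0.19. In all 6 of these genes each sham microglia library lay above each sham astrocyte library. The alpha-galactosidase Gla, with 409 reads over the 5 sham microglia libraries, was not called (log2 difference 0.12, 95% interval -0.51 to 0.75).

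Gaa, which releases glucose from glycogen in the lysosome, was the glycosidase gene called higher in astrocytes. It was at 147, 101, 128, 138 and 148 CPM in the 5 sham microglia libraries and at 313, 219, 252, 117 and 141 CPM in the 5 sham astrocyte libraries. Sham astrocyte libraries 1 to 3 lay above all the microglia libraries, and libraries 4 and 5, low in astrocyte markers, lay among them. The log2 difference was -0.66 ± 0.21 (edgeR adjusted p = 0.00859). It became -0.95 (adjusted p = 2.88e-05 in edgeR, over its alternatives 2.88e-05 to 0.0539) without astrocyte libraries 4 and 5 of both conditions, a setting chosen after the data were seen. Leaving out sham astrocyte library 1, sham astrocyte library 3 or sham microglia library 2 brought it to -0.48, -0.53 or -0.54, under the minimum difference. With a replicate block it was -0.595 and not called either.

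Among lipid hydrolases and their activators, 4 of 6 were higher in microglia, while Smpd1, the acid sphingomyelinase, was higher in astrocytes. Smpd1 was at 33.6, 29.1, 40.0, 34.2 and 35.6 CPM in the sham microglia libraries and at 147, 117, 118, 65.8 and 59.9 CPM in the sham astrocyte libraries. The groups did not overlap, and astrocyte libraries 4 and 5 were again the lowest of their group. The log2 difference was -1.56 ± 0.25 (edgeR adjusted p = 1.12e-05), and it was -1.85 without astrocyte libraries 4 and 5. Lipa, the acid lipase that frees cholesterol from its esters, went the other way, at 71.3 ± 6.90 CPM in sham microglia and 24.0 ± 4.41 CPM in sham astrocytes, a log2 difference of 1.57 ± 0.17. Psap encodes the precursor of the saposins, small proteins that present sphingolipids to their hydrolases. It was at 1908 ± 159 against 919 ± 191 CPM and differed by 1.05 ± 0.16.

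**Figure D2:**
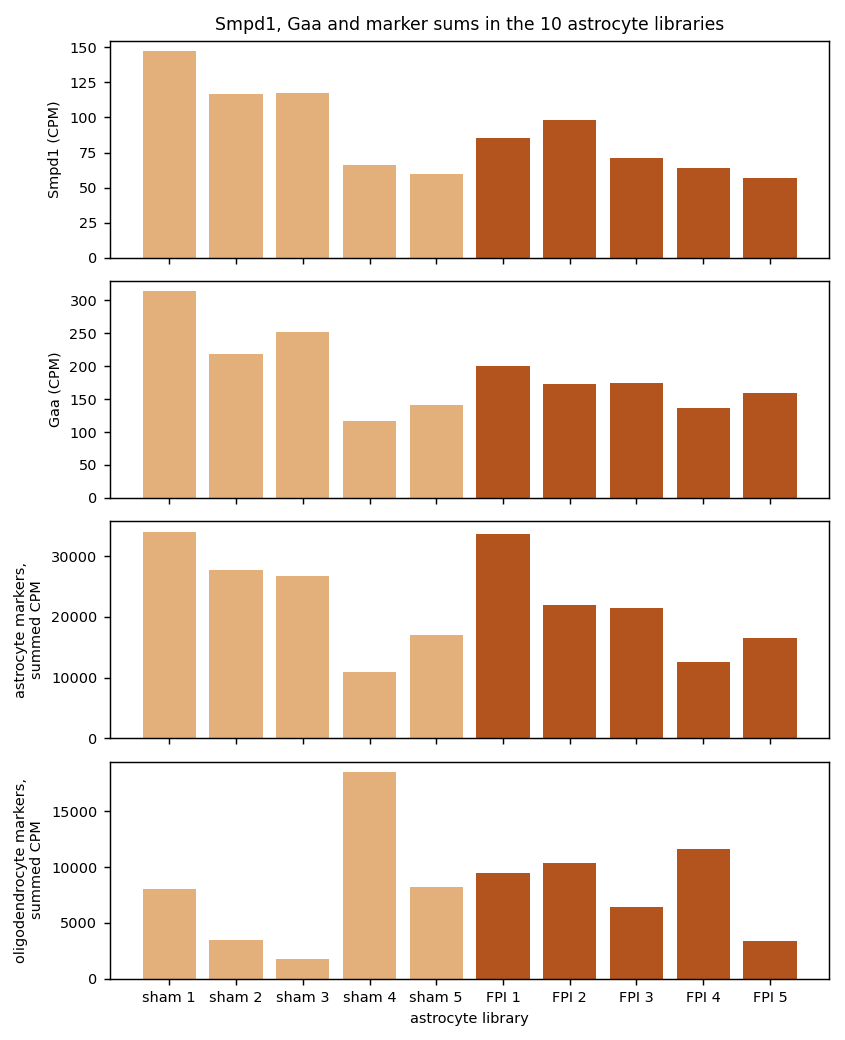
Smpd1 and Gaa levels (CPM) and summed CPM of astrocyte and oligodendrocyte markers in each of the 10 astrocyte libraries, 1 bar per library, lighter for sham and darker for FPI. Sham libraries 4 and 5 have the lowest Smpd1 (65.8 and 59.9 CPM), Gaa (117 and 141 CPM) and astrocyte marker sums (10935 and 16963 CPM) of the sham astrocytes, while the oligodendrocyte sum is highest in sham library 4 (18546 CPM).

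All 3 genes for peptidases and progranulin were called higher in microglia, Tpp1 by little. Lgmn encodes legumain, a protease that cuts after asparagine and also trims other lysosomal proteases. It was at 2970 ± 151 CPM in sham microglia and 121 ± 23.4 CPM in sham astrocytes, a log2 difference of 4.62 ± 0.19 (edgeR adjusted p = 4.15e-14). Grn encodes progranulin, a secreted protein that is also carried to the lysosome and cleaved there into granulins. Its level was 1378 ± 170 CPM in sham microglia and 73.2 ± 13.7 CPM in sham astrocytes, a log2 difference of 4.23 ± 0.22. Tpp1, a tripeptidyl peptidase chosen after its values were seen, was at 189 ± 15.6 against 124 ± 41.4 CPM, a log2 difference of 0.61 ± 0.22 (edgeR adjusted p = 0.0196). It was not called without sham microglia library 1 or 5 (0.60 and 0.59), FPI microglia library 4 (0.59), sham astrocyte library 4 or 5 (0.52 and 0.54), or astrocyte libraries 4 and 5 together (0.34). The call was also lost with DESeq2 and RLE factors (0.52 each) and with the stricter filter on low counts (0.46). Of the membrane proteins and transporters 3 of 6 were higher in microglia, led by Npc2, which binds cholesterol in the lumen and passes it to the membrane protein NPC1. Npc2 was at 160 ± 10.6 CPM in sham microglia and 53.2 ± 6.55 CPM in sham astrocytes and differed by 1.59 ± 0.14. Another of the 3, Scarb2, chosen after its values were seen, had a log2 difference of 0.63 and was not called without sham microglia library 5 (0.59) or sham astrocyte library 3 (0.58), with DESeq2 or RLE factors (0.55 each), or with the stricter filter (0.50). Lamp1, an abundant glycoprotein of the lysosomal membrane, was at 769, 575, 689, 545 and 644 CPM in sham microglia and at 699, 538, 450, 676 and 514 CPM in sham astrocytes. These libraries overlapped throughout, and the log2 difference of 0.16 ± 0.17 (95% interval -0.19 to 0.52) did not pass the test. It was 0.13 to 0.27 without single libraries and 0.028 to 0.23 over the other alternatives.

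The 2 alternative d subunits of V0, which couple the membrane ring of the pump to its stalk, were very unlike in level. Atp6v0d1 was at 47.4 ± 7.06 CPM in sham microglia and 59.2 ± 11.7 CPM in sham astrocytes (log2 difference -0.32, 95% interval -0.73 to 0.09). Atp6v0d2 had 0 reads in all 10 sham libraries and did not pass the default filter on low counts in any of the 4 comparisons. In the TFEB family Tfe3 was at 157, 143, 148, 162 and 155 CPM in sham microglia and at 26.0, 24.6, 24.1, 22.6 and 22.6 CPM in sham astrocytes. This was a log2 difference of 2.67 ± 0.16 (edgeR adjusted p = 7.82e-12), with little spread in either cell type. Mitf was at 66.9 ± 12.7 against 19.8 ± 6.34 CPM and differed by 1.75 ± 0.20. Tfeb itself was at 56.9 ± 3.90 against 37.8 ± 13.4 CPM. Its log2 difference of 0.59 ± 0.23 had an edgeR adjusted p of 0.0288 and lay just under the minimum difference. It was 0.98 without astrocyte libraries 4 and 5, and 0.62 to 0.83, and so called, in the 11 fits that left out sham microglia library 1, 3 or 4, FPI microglia library 1 or 3, sham astrocyte library 4 or 5, or FPI astrocyte library 2, 3, 4 or 5. It was also called in the 10 sham libraries alone (0.65) and with a replicate block (0.64). The number of members called stayed at 27 without astrocyte libraries 4 and 5, with 25 of them shared, and was 24 with DESeq2.

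After FPI, 1 member was called in microglia, Grn, and it rose. In sham microglia it was at 1394, 1176, 1297, 1385 and 1638 CPM, and in FPI microglia at 2439, 2300, 1646, 2232 and 3084 CPM. The groups did not overlap, though FPI library 3 exceeded the highest sham library by little. The log2 fold change was 0.78 ± 0.16 (edgeR, adjusted p = 0.00932), or 1.72-fold. Over all 12143 genes tested in microglia 2.35% were called, 2.13% upward, so that 1 of 41 tested members (2.44%) was close to the share of all genes. Grn stayed called in each of the 10 fits that left out 1 library, with log2 fold changes of 0.64 to 0.90. It was also called within each series of library names, at 0.71 (edgeR adjusted p = 0.0361) in replicates 1 to 3 and 0.86 (adjusted p = 0.0842) in replicates 4 and 5, over all its alternatives at an adjusted p of 5.51e-05 to 0.0907. The gene lies at chr11:102430315-102437048 on the plus strand of GRCm38, and 59663 reads in sham and 91561 in FPI microglia support it. Its level in astrocytes, 73.2 ± 13.7 CPM in sham and 74.2 ± 17.4 CPM in FPI, was far below that of every microglia library.

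Another 3 members had an adjusted p below 0.1 with a fold change under the minimum, all upward. Together with Grn they made 4 of 41, against 2.64% of all genes tested. Atp6v1b2, a subunit of the V1 sector that takes part in ATP binding, was at 51.6, 74.5, 78.3, 61.9 and 47.9 CPM in sham and at 103, 88.9, 83.8, 93.2 and 97.9 CPM in FPI microglia. The groups did not overlap, and the log2 fold change was 0.59 ± 0.15 (edgeR adjusted p = 0.0411). For Npc2 the libraries were at 157, 158, 160, 147 and 177 CPM in sham and at 243, 248, 165, 237 and 249 CPM in FPI microglia. Here 4 FPI libraries lay close together above all sham libraries and FPI library 3 fell among the sham values, giving a log2 fold change of 0.53 ± 0.13 (edgeR adjusted p = 0.0428). Gusb was at 180, 145, 161, 176 and 155 CPM in sham and at 212, 225, 200, 234 and 252 CPM in FPI microglia. It did not overlap between the groups either, and its log2 fold change was 0.47 ± 0.12 (edgeR adjusted p = 0.0455). Grn, Atp6v1b2 and Gusb were thus 3 of 41 members whose FPI values were all higher than the highest sham value, against 2.17% of all genes, and 0 members lay wholly below them, against 1.27%.

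The calls of these genes varied with single libraries. Without FPI library 3 the count of members called was 3, with Npc2 at 0.64 and Atp6v1b2 at 0.64. It was 2, Atp6v1b2 added, without sham library 2, sham library 3 or FPI library 2 (0.64, 0.68 and 0.61). These counts are given without the share of all genes called in the same fits and are not read as a result about the members. The edgeR adjusted p stayed below 0.1 in 6 of the 10 fits for Atp6v1b2, 5 for Gusb and 4 for Npc2, and ran over those fits up to 0.131, 0.177 and 0.140. Over the other alternatives the adjusted p (edgeR or DESeq2) ran up to 0.334, 0.277 and 0.232. The log2 fold changes there were 0.42 to 0.85, 0.37 to 0.60 and 0.45 to 0.63. FPI library 3 held the lowest of the 5 FPI values for 25 of the 42 members and FPI library 5 the highest for 22. How often this held over all genes was not counted, so it is not read as a trait of the members. Microglia markers summed to 18457 CPM in FPI library 3 and to 28515 CPM in FPI library 5, the ends of their range in FPI microglia. Whether this has a part in the member values was not tested.

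**Figure D3:**
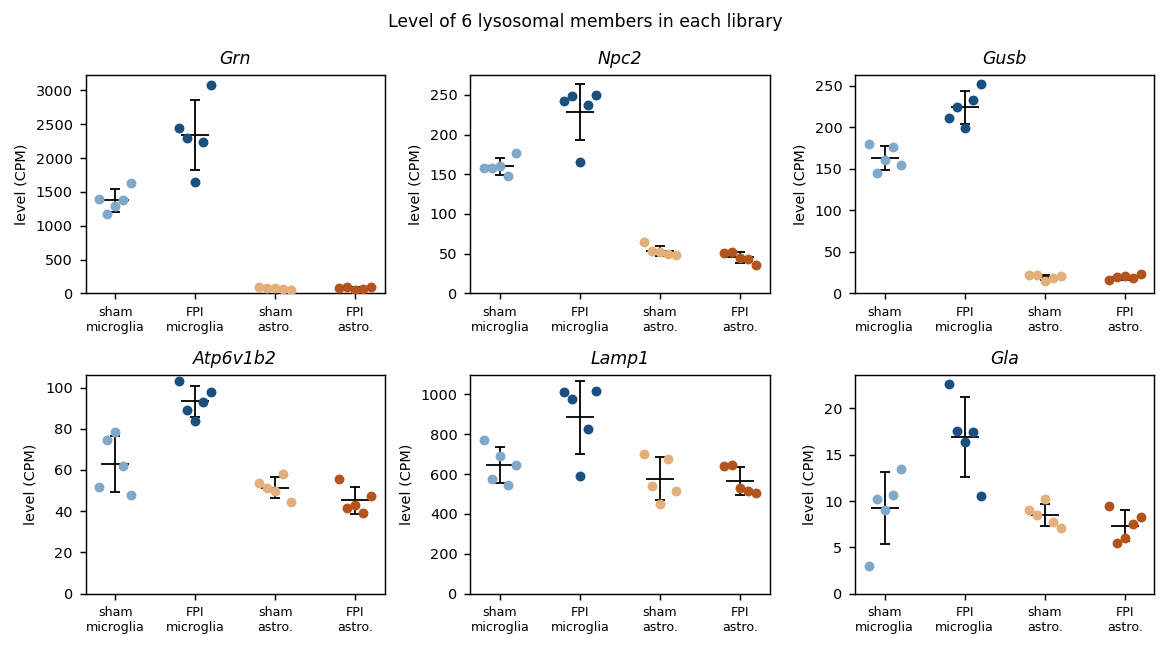
Level (CPM) of Grn, Npc2, Gusb, Atp6v1b2, Lamp1 and Gla in each of the 20 libraries, 1 point per library, with the mean and SD of each group in black. In Grn, Gusb and Atp6v1b2 the FPI microglia points all lie above the sham microglia points, in Npc2, Lamp1 and Gla 1 FPI point falls among them, and the astrocyte points of the 2 conditions overlap in all 6 genes.

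Most other members had positive fold changes that did not pass the test. Of the 41 tested, 36 had a log2 fold change above 0 and 5 below, with a median of 0.17 against -0.01 over all genes tested. Among all genes 5910 of 12143 were above 0. The median of the members was 0.26 without FPI library 3 and 0.34 in replicates 4 and 5 alone, and in replicates 1 to 3 alone it was 0.12. The number of members above 0 was 28 of 41 without FPI library 5, with a median of 0.12, 32 to 37 without any other single library, and 27 in replicates 1 to 3 alone. Values over all genes in these fits are not given here. At an unadjusted p under 0.05 there were 11 members upward and 1 downward, against 7.47% and 3.87% of all genes. The 11 fell in 6 of the 7 role groups: 4 glycosidases, 2 from the group of membrane proteins and transporters, 2 V1 subunits, and 1 each among lipid activators, progranulin and the TFEB family. None of the 3 tested V0 subunits was among them.

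Lamp1 was at 1012, 977, 590, 826 and 1019 CPM in the FPI microglia libraries. Apart from library 3, which lay within the sham range, these were above the 545 to 769 CPM of the sham libraries. The log2 fold change was 0.47 ± 0.16 (edgeR adjusted p = 0.17). Gla, the enzyme missing in Fabry disease, had the largest fold change among the members with few reads behind it. Sham microglia were at 3.00, 10.2, 9.07, 10.7 and 13.4 CPM and FPI microglia at 22.6, 17.6, 16.4, 17.4 and 10.5 CPM. Only FPI library 5 overlapped the sham range, and sham library 1 was well below the others. The log2 fold change was 0.89 ± 0.32 (edgeR adjusted p = 0.211), and it ranged from 0.25 in replicates 4 and 5 to 1.33 in replicates 1 to 3. Psap (1908 ± 159 to 2394 ± 283 CPM, log2 fold change 0.34 ± 0.13), Hexa (445 ± 31.2 to 534 ± 66.5 CPM, 0.28 ± 0.12) and Man2b1 (861 ± 35.7 to 1016 ± 113 CPM, 0.26 ± 0.12) had smaller fold changes, with edgeR adjusted p of 0.238, 0.368 and 0.426. Lgmn, whose level per length was above that of every other member in sham microglia, was at 2970 ± 151 CPM in sham and 2989 ± 586 CPM in FPI microglia, and the 95% interval of its log2 fold change ran from -0.27 to 0.33.

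**Figure D4:**
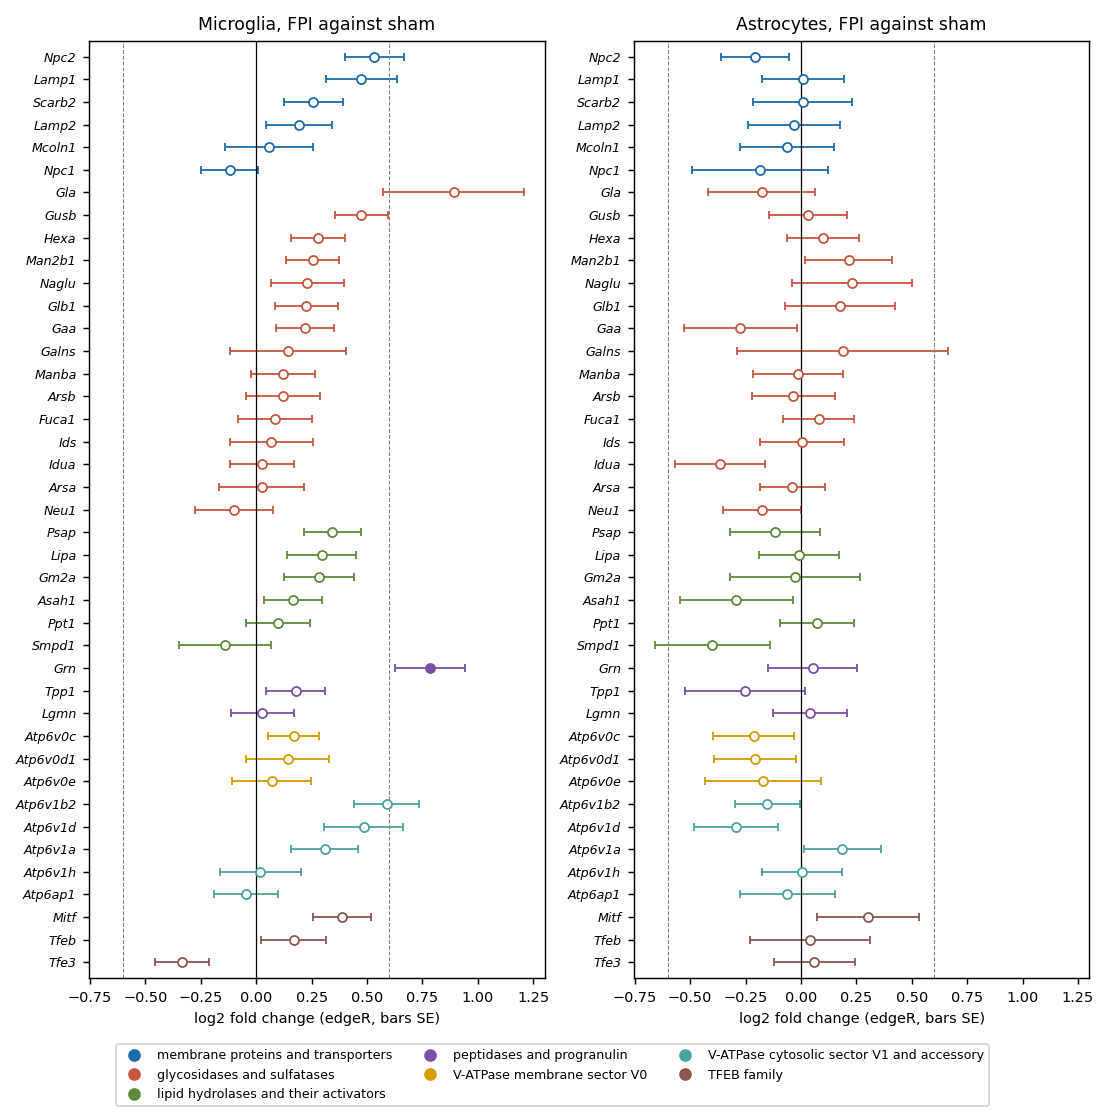
Log2 fold change after FPI for the 41 tested members in microglia (left) and astrocytes (right), in the same order of roles, with bars of 1 SE from edgeR; filled points were called and dashed lines mark 0.6 either way. Grn is the 1 filled point, 36 of 41 points lie above 0 in microglia and 18 of 41 in astrocytes, and no astrocyte point reaches a dashed line.

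In the proton pump, Atp6v1d, part of the central stalk, was at 54.2, 44.1, 36.6, 43.6 and 31.2 CPM in sham and 57.9, 77.5, 47.1, 45.0 and 63.3 CPM in FPI microglia. The groups overlapped in part, and the log2 fold change of 0.48 ± 0.18 had an edgeR adjusted p of 0.238. Atp6v0d1 was at 55.5, 54.8, 41.9, 42.3 and 42.6 CPM in sham and at 41.4, 63.5, 32.6, 63.6 and 57.8 CPM in FPI microglia. The FPI libraries lay on both sides of the sham libraries, with a log2 fold change of 0.14 ± 0.19 that was -0.16 in replicates 1 to 3 alone. It reached 0.56 over the other alternatives and was 0.056 to 0.28 without single libraries. In replicates 4 and 5 the mean was 42.5 CPM in sham and 60.7 CPM in FPI microglia. Atp6v0d2 is known from osteoclasts and from macrophages, where it takes the place of Atp6v0d1. Its reads numbered 22, 13, 3, 0 and 0 in the 5 FPI microglia libraries and 0 in each sham microglia library. The 22, 13 and 3 reads were in the libraries of the first name series, the ones with more border macrophage markers, and the 0 counts in the other series. In sham microglia of the first series the border macrophage sums were 478, 312 and 465 CPM, above the 283, 201 and 150 CPM of their FPI counterparts, and Atp6v0d2 had no read there. Whether border macrophage RNA has a part in these reads was not tested. Among astrocytes FPI library 2 held 1 read and the other 9 held 0.

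No gene of the TFEB family was called in microglia after FPI. Mitf was at 56.2, 68.96, 60.5, 88.1 and 60.8 CPM in sham and at 77.6, 88.0, 97.3, 83.0 and 86.8 CPM in FPI microglia. Apart from sham library 4, the sham values lay below all FPI values, and the log2 fold change was 0.39 ± 0.13 (edgeR adjusted p = 0.18). Tfe3, the 1 member lower at an unadjusted p under 0.05, was at 157, 143, 148, 162 and 155 CPM in sham and at 133, 120, 146, 99.97 and 103 CPM in FPI microglia. FPI library 3 alone reached the sham range here, and the log2 fold change was -0.34 ± 0.12 (edgeR adjusted p = 0.223). It was -0.19 in replicates 1 to 3 alone and -0.59 in replicates 4 and 5 alone. Tfeb was at 57.9, 62.5, 52.0, 57.4 and 54.9 CPM in sham and at 71.7, 44.9, 71.9, 59.3 and 68.4 CPM in FPI microglia, with a log2 fold change of 0.17 ± 0.15 and a 95% interval of -0.14 to 0.48. Transcript levels do not show where these proteins are in the cell.

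**Figure D5:**
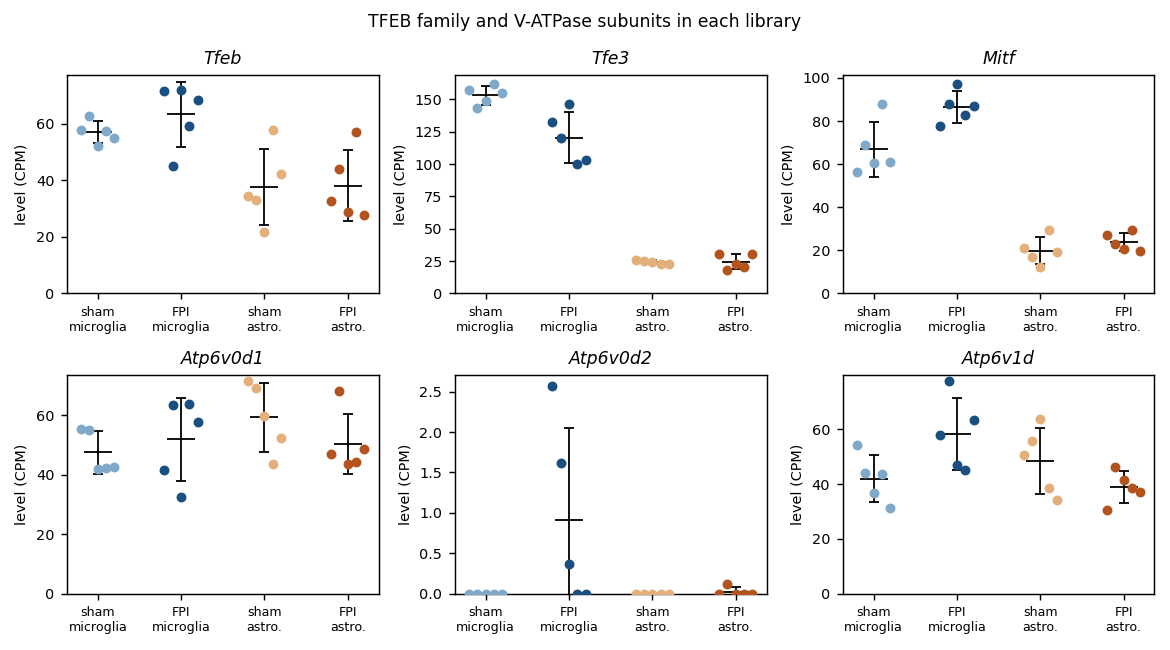
Level (CPM) of Tfeb, Tfe3, Mitf, Atp6v0d1, Atp6v0d2 and Atp6v1d in each of the 20 libraries, 1 point per library, with the mean and SD of each group in black. Tfe3 and Mitf are higher in microglia of both conditions than in astrocytes, and Atp6v0d2 is at 0 in every sham library and above 0 in 3 FPI microglia libraries and 1 FPI astrocyte library.

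The E-box CACGTG is the core of the sequence that TFEB, TFE3 and MITF bind near lysosomal genes. RefSeq promoters on GRCm38.p6, 250 bases before to 50 after each start, were at hand for 36 of the 42 members; Npc1, Galns, Asah1, Atp6v0d2, Atp6v1b2 and Atp6v1h were not among them. CACGTG reads the same on both strands, and it was present in 11 of the 36 members (30.6%), in 21 of 100 other lysosomal genes and in 2187 of 27025 genes in all (8.09%). The longer TCACGTGA, which contains it, was in 5 of the 36 (13.9%) and in 304 of all genes (1.12%). The 11 members were Lamp1, with 4 copies, Mcoln1 and Gla with 2 each, and Glb1, Naglu, Gaa, Arsa, Lgmn, Atp6v0d1, Atp6v0e and Atp6v1a with 1 each. In FPI microglia 2 of these 11 had an unadjusted p under 0.05 and 0 were called, with a median log2 fold change of 0.22. Of the 25 without the letters, 9 had an unadjusted p under 0.05 in either direction and 1, Grn, was called, with a median of 0.18. Of all genes tested in microglia, 11.3% had an unadjusted p under 0.05 in either direction, and whether the genes with and without the letters differ was not tested. A match of letters is a description of the sequence and does not show binding.

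To show how the copies are placed, stretches of 100 bases are given 5′ to 3′ on the strand of the gene, with CACGTG in capitals. For Lamp1 (chr8:13159061-13159160, plus strand), which holds 4 copies within 61 bases of the start, for Mcoln1 (chr8:3500419-3500518, plus), the lysosomal cation channel, for Naglu (chr11:101069994-101070093, plus), for Lgmn (chr12:102439093-102439192, minus) and for Grn (chr11:102430407-102430506, plus), which has none in its window and was called in microglia, these are the 100 bases before the start. For Gla (chrX:134601156-134601255, minus) they run from 250 to 151 bases before it. The starts are those of RefSeq, and GENCODE M21 begins some of these genes further upstream: the stretches of Grn and Lgmn lie within its gene, those of Mcoln1 and Naglu partly within it, and those of Lamp1 and Gla before it.
Lamp1: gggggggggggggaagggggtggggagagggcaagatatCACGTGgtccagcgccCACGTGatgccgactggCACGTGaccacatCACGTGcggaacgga
Mcoln1: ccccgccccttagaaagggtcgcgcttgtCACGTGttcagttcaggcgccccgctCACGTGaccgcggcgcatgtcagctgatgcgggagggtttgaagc
Gla: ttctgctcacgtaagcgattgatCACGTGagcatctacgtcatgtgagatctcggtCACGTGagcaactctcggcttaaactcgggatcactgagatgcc
Naglu: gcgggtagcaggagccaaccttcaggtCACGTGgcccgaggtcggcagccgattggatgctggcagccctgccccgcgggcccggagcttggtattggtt
Lgmn: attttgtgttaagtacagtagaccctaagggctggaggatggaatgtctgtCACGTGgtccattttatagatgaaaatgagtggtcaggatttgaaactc
Grn: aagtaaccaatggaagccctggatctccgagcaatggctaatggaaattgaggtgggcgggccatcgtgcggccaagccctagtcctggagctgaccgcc

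In astrocytes, 0 of 41 tested members were called after FPI by edgeR and 0 by DESeq2, and 0 had an unadjusted p under 0.05. The background was low too: edgeR called 0.00728% of the 13741 genes tested and DESeq2 0.167%, and an unadjusted p under 0.05 was found for 1.57% upward and 0.75% downward. No member had all FPI libraries above or all below the sham libraries, against 0.451% and 0.262% of all genes. The log2 fold changes ran from -0.40 to 0.30, with 18 above 0 and 23 below and a median of -0.03 against -0.01 over all genes. Among all genes 6756 of 13741 were above 0. Lamp1 was at 699, 538, 450, 676 and 514 CPM in sham and at 640, 648, 529, 516 and 505 CPM in FPI astrocytes, and the 95% interval of its log2 fold change ran from -0.40 to 0.42. In the TFEB family Mitf was at 19.8 ± 6.34 CPM in sham and 24.0 ± 4.26 CPM in FPI astrocytes (log2 fold change 0.30 ± 0.23), Tfe3 at 24.0 ± 1.46 and 24.5 ± 5.82 CPM (0.06 ± 0.18) and Tfeb at 37.8 ± 13.4 and 38.1 ± 12.4 CPM (0.04 ± 0.27). The log2 fold change of Mitf was 0.15 to 0.49 without single libraries and 0.016 to 0.53 over the other alternatives. Atp6v0d1 was at 71.6, 69.1, 59.8, 43.5 and 52.3 CPM in sham and at 46.8, 68.0, 43.6, 44.2 and 48.6 CPM in FPI astrocytes, where library 2 stood above the other 4. Its log2 fold change was -0.21 ± 0.18. The number of members called was also 0 in replicates 1 to 3 alone and in replicates 4 and 5 alone, and with FPI libraries 2 and 5 summed. It was also 0 with all 20 libraries fitted together, where 0.352% of all genes were called.

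The test of whether FPI acted differently in the 2 cell types called 0 of 41 members by edgeR, against 0.199% of all 15077 genes. At an unadjusted p under 0.05 there were 7 members, all with the log2 fold change higher in microglia, against 3.77% of all genes in that direction. They were Npc2, Atp6v1b2, Atp6v1d, Grn, Gla, Gusb and Psap. The log2 fold change in microglia minus that in astrocytes was 0.75 ± 0.20 for Npc2 (edgeR adjusted p = 0.204) and 0.75 ± 0.21 for Atp6v1b2 (adjusted p = 0.242, edgeR). DESeq2, which called 1.25% of all genes here, called these 2, at 0.74 each and adjusted p of 0.0528 and 0.0597, over their alternatives 0.0528 to 0.504 and 0.0597 to 0.504. Npc2 was also called by edgeR without FPI microglia library 3 (0.84, adjusted p = 0.0946). For Grn the difference was 0.74 ± 0.27 (edgeR adjusted p = 0.514), so that its call in microglia and its lack of one in astrocytes were not shown to differ. Gusb had a difference of 0.45 ± 0.20 (edgeR adjusted p = 0.639). For Lamp1 (0.48 ± 0.24), Atp6v0d1 (0.36 ± 0.28), Tfeb (0.14 ± 0.32), Mitf (0.10 ± 0.27) and Tfe3 (-0.38 ± 0.21) the edgeR adjusted p was 0.73 or more. Over the members the median was 0.19, against 0.02 over all genes. Among all genes 7768 of 15077 were above 0, and among the members 38 of 41. That number was 27 without sham astrocyte library 1, with a median of 0.13, 31 to 39 without any other single library, and 29 without astrocyte libraries 4 and 5.

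Beyond the members, 120 further lysosomal genes were looked at: 34 other hydrolases and activators, 39 membrane proteins and transporters, 16 V-ATPase subunits, 13 genes of enzyme sorting and 18 regulators of lysosome biogenesis and mTORC1 docking. In microglia 106 passed the filter on low counts and 3 were called (2.83%, against 2.35% of all genes), all upward: Cd63, Ifi30 and Igf2r. Lyz2 was not called here, but it was in several alternative fits, among them a replicate block and a term for the series of library names. Cd63, a tetraspanin of late endosomes and exosomes, was at 94.2, 70.7, 88.5, 95 and 120 CPM in sham and at 172, 175, 127, 152 and 147 CPM in FPI microglia. The groups did not overlap, and its log2 fold change was 0.74 ± 0.15 (edgeR adjusted p = 0.00826). It was called in all 10 fits without 1 library and lost the call in replicates 4 and 5 alone (0.52, adjusted p = 0.275 in edgeR, over its alternatives 0.000253 to 0.275). Ifi30, a thiol reductase that prepares antigens for MHC class II, was at 102, 58.3, 73.7, 83.1 and 79.5 CPM in sham and at 137, 167, 78.9, 102 and 146 CPM in FPI microglia. Its libraries overlapped, its log2 fold change was 0.68 ± 0.19 (edgeR adjusted p = 0.0779), and it was called in 3 of the 10 fits without 1 library, losing the call without sham library 2, 3, 4 or 5 or FPI library 1, 2 or 5 (0.57 to 0.69, adjusted p of 0.141 to 0.281 in edgeR). Over its other alternatives the adjusted p (edgeR or DESeq2) was 0.00394 to 0.393. The call was also lost with a replicate block, with all 20 libraries fitted together, in replicates 1 to 3 alone and in replicates 4 and 5 alone.

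Igf2r, the large receptor that carries mannose-phosphate-tagged enzymes to the lysosome, was at 3.25, 1.83, 2.69, 4.09 and 1.33 CPM in sham and at 17.2, 10.5, 8.43, 2.62 and 8.84 CPM in FPI microglia. Of the FPI libraries 4 lay above all sham libraries and library 4 among them, and the log2 fold change was 1.86 ± 0.47 (edgeR adjusted p = 0.0432). The call was lost without sham library 2 or 3 or FPI library 1 or 2, at 1.52 to 1.87 with an adjusted p of 0.105 to 0.142 in edgeR. It was also lost in replicates 4 and 5 alone and with a replicate block. Over its other alternatives the adjusted p (edgeR or DESeq2) was 0.0037 to 0.67. Igf2r was much higher in sham astrocytes (96.1 ± 22.7 CPM), and astrocyte markers summed to 602, 628, 384, 314 and 300 CPM in the 5 FPI microglia libraries. Their part in the Igf2r result was not tested. The count of these further genes called in microglia was 1 without sham library 2, sham library 3, FPI library 1 or FPI library 2, and 5 without FPI library 3. The share of all genes called in those fits is not given here. At an unadjusted p under 0.05, 12 were upward and 2 downward, against 7.47% and 3.87% of all genes, and the median log2 fold change was 0.08. Those with the smallest p downward were Mfsd8, a lysosomal chloride channel (13.3 ± 5.11 to 7.63 ± 2.56 CPM, -0.80 ± 0.33), the sulfamidase Sgsh (39.3 ± 9.20 to 28.3 ± 5.71 CPM, -0.46 ± 0.20) and the cystine transporter Ctns (39.5 ± 2.64 to 31.6 ± 3.45 CPM, -0.31 ± 0.15). Their edgeR adjusted p were 0.313, 0.366 and 0.456. Without sham library 1 the log2 fold changes of Mfsd8 and Sgsh were -0.53 and -0.29. In replicates 1 to 3 alone Mfsd8, Sgsh and Ctns were at -1.23, -0.69 and -0.41, and in replicates 4 and 5 alone at -0.18, -0.11 and -0.17.

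In astrocytes 0 of 105 further lysosomal genes were called after FPI by edgeR, with 4 upward and 0 downward at an unadjusted p under 0.05 (1.57% and 0.75% of all genes), and DESeq2 called 2, Laptm5 and Lyz2, against 0.167% of all genes. In edgeR both were called with all 20 libraries fitted together, and Lyz2 also with a replicate block and with genes of as little as 1 count tested. Lyz2, the lysozyme of myeloid cells, was at 1.46, 0.261, 0.104, 0.513 and 0.758 CPM in sham and at 9.48, 19.3, 3.49, 3.64 and 11.7 CPM in FPI astrocytes. Laptm5, a lysosomal membrane protein of blood and immune cells, was at 0.398, 1.05, 1.15, 1.64 and 0.379 CPM in sham and at 3.81, 7.89, 3.11, 2.93 and 13.3 CPM in FPI astrocytes. Neither overlapped between the groups, and the log2 fold changes were 4.00 ± 0.69 (edgeR adjusted p = 0.151) and 2.74 ± 0.59 (adjusted p = 0.561 in edgeR). In sham microglia these genes were at 149 ± 73.9 and 1710 ± 207 CPM. Of the microglia markers, Csf1r, the most abundant in microglia, was at 2.40 ± 2.56 CPM in sham and 18.0 ± 15.1 CPM in FPI astrocytes, and Sall1, the most abundant in astrocytes, at 92.1 and 94.9 CPM. The whole list of 10 summed to 181, 144, 105, 125 and 110 CPM in sham and 261, 211, 142, 124 and 210 CPM in FPI astrocytes. No microglia marker was at 0 in FPI astrocyte libraries 2 to 5, and Aif1 was at 0 in library 1. Whether microglial RNA has a part in the values of Lyz2 and Laptm5 in astrocytes was not tested. Ifi30 was at 4.41 ± 1.34 CPM in sham and 9.37 ± 5.66 CPM in FPI astrocytes (log2 fold change 1.10 ± 0.39, edgeR adjusted p = 0.999). FPI library 5 was at 19.2 CPM and the other FPI libraries at 4.53 to 8.14 CPM. The log2 fold change was 0.65 to 1.26 without single libraries and 0.66 to 1.57 over the other alternatives. The other gene upward at an unadjusted p under 0.05, Cd68 of phagocyte lysosomes, chosen after its values were seen, was at 0.966 ± 0.676 CPM in sham and 3.25 ± 1.48 CPM in FPI astrocytes. The genes of smallest p downward were Zkscan3, a repressor of autophagy genes (60.6 ± 16.9 to 45.3 ± 8.04 CPM, -0.40 ± 0.20), the chitobiase Ctbs (27.6 ± 9.03 to 19.2 ± 4.97 CPM, -0.49 ± 0.26) and the aspartylglucosaminidase Aga (13.4 ± 3.67 to 9.09 ± 4.16 CPM, -0.53 ± 0.31), each with an edgeR adjusted p of 0.999. The log2 fold change of Zkscan3 was -0.23 without sham astrocyte library 3, that of Aga -0.85 without FPI astrocyte library 2, and that of Ctbs -0.18 in replicates 4 and 5 alone. In the test of the difference between the cell types 1 of 108 was called, against 0.199% of all genes. DESeq2 called 6, against its 1.25% of all genes, and edgeR called 0 with the stricter filter on low counts and 2 without FPI microglia library 4 or without FPI astrocyte library 3. The 1 gene was Laptm5, at -2.75 ± 0.52 (edgeR adjusted p = 0.0324), with its level at 1710 ± 207 CPM in sham and 1604 ± 332 CPM in FPI microglia.

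Between sham microglia and sham astrocytes 69 of 108 further lysosomal genes were called (63.9%, against 60.9% of all genes), with a median log2 difference of 0.60. Of these, 54 were higher in microglia and 15 higher in astrocytes, against 25.3% and 35.6% of all genes. Tcirg1 and Atp6v0e2, V0 subunits chosen after their values were seen, lay at the opposite ends of the V-ATPase genes. Tcirg1, the a3 subunit known from osteoclasts, was at 274 ± 64.0 CPM in sham microglia and 24.6 ± 4.11 CPM in sham astrocytes, a log2 difference of 3.48 ± 0.22. Atp6v0e2, an alternative e subunit, was at 0.534 ± 0.336 CPM in sham microglia and 49.4 ± 9.26 CPM in sham astrocytes, a log2 difference of -6.58 ± 0.41 (edgeR adjusted p = 1.48e-11). Its partner Atp6v0e, a member, was at 33.4 ± 3.67 and 45.5 ± 18.3 CPM in these groups and was not called, while without astrocyte libraries 4 and 5 it was called at -0.75. Igf2r also stood on the astrocyte side, with a log2 difference of -5.17 ± 0.39, and Laptm5 on the microglia side, at 10.79 ± 0.50.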

How the data were processed

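The values used here are the counts of reads per gene that the authors deposited, whole numbers without normalization. Per the submitters' processing notes they came from HISAT2 2.1.0 and featureCounts on GRCm38.p6, and the strand setting of the counting is not given in the sources used here. The kit, made for picogram amounts of total RNA, marks strand. Exons of Lamp1, Npc1, Hexa, Idua, Arsa, Arsb, Ppt1, Grn and Atp6v1h overlap a gene on the other strand and those of Glb1 a gene on the same strand, so that some of their reads may belong to the neighbour. Among the further genes named, exons of Ifi30, Sgsh, Mfsd8 and Ctbs overlap a gene on the other strand, with the same limit. All 20 files of single libraries equalled their column of the combined table. No pair of replicates agreed within sampling noise (chi-square per gene of 15.3 to 171 over 40 pairs). Libraries were grouped by their titles, FPI astrocyte library 5 included. Totals of 5623349 to 13110857 reads limit precision for genes with few reads such as Gla and Atp6v0d2.

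Each cell type was fitted alone, and all 20 libraries together for the contrasts of cell types, by the quasi-likelihood test of edgeR 4.0.16 (R 4.3.3) after filterByExpr and with TMM scaling. Adjusted p are Benjamini-Hochberg values over all genes tested. The fits took the libraries as independent, those of 3 animals with both cell types included. FPI astrocyte libraries 2 and 5, which share an animal number, were also taken as independent, and their group may hold fewer animals than libraries. Standard errors come from the F statistic. The steps were tested on simulated data. Exon lengths are from GENCODE M21, which held 37607 of 39017 identifiers, and promoters from RefSeq. Alternatives were DESeq2 1.42.0, RLE factors, other filters on low counts, other thresholds, a replicate block, a term for the series of library names, all libraries fitted together, sham libraries alone, FPI astrocyte libraries 2 and 5 summed, and leaving out libraries; the splits into replicates 1 to 3 and 4 to 5 were added after the data were seen.

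Members, the 120 further genes and the marker lists were chosen with earlier results of these data known. Named members are, in each comparison, those called (at most 12 of smallest p in each direction); after FPI also those with an unadjusted p under 0.05 or without overlap; Lamp1, Atp6v0d1, Atp6v0d2 and the TFEB family always; and the highest per length in each role group. Further genes are those called after FPI and the 3 of smallest p in each direction. Python 3.11.15 drew figures with matplotlib 3.10.9.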

Additional observations from a re-analysis of the deposited data

Results flagged for a closer look

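Each of the 136 groups of 5 values looked at, from 35 genes, was searched for a library far from the other 4, and 5 such libraries were found; chance flags about 1 in 20 groups. Npc2 was at 165 CPM in FPI microglia library 3, with the others at 237 to 249 CPM. Atp6v0d1 was at 68.0 CPM in FPI astrocyte library 2, against 43.6 to 48.6 CPM. Ifi30 was at 19.2 CPM in FPI astrocyte library 5, against 4.53 to 8.14 CPM. The name of this library carries the suffix M, as do those of microglia libraries 1 to 3. Sgsh was at 55.6 CPM in sham microglia library 1, against 34.1 to 37.3 CPM, and Zkscan3 at 90.1 CPM in sham astrocyte library 3, against 49.0 to 57.7 CPM. The effect of FPI on Laptm5 differed between the cell types by the test of the difference, with a log2 fold change in microglia minus that in astrocytes of -2.75 (edgeR adjusted p = 0.0324). Laptm5 was at 1710 ± 207 CPM in sham microglia, at 0.379 to 1.64 CPM in sham astrocytes and at 2.93 to 13.3 CPM in FPI astrocytes, with a log2 fold change of 2.74 in astrocytes. The 7 microglia markers tested in astrocytes had a median log2 fold change of 2.96 after FPI, 4 of them upward at an unadjusted p under 0.05. Whether microglial RNA has a part in the Laptm5 difference was not tested.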

How the results depend on the processing

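Over the alternatives 1264 values for single genes kept their direction and their side of the threshold, 30 newly passed it, 22 no longer did and 25 changed sign; of the counts, 115 stayed within 1.5 times the value given and 21 did not. Members called in microglia numbered 2, Atp6v0d2 and Grn, when genes with as little as 1 count were tested, and 4 without the minimum fold change. With a replicate block they numbered 2, Atp6v1b2 and Grn. Leaving out single libraries gave 1 to 3. For the difference between cell types DESeq2 called 2 members, and leaving out single libraries gave 0 to 1. Further lysosomal genes called in microglia numbered 5 under that looser filter, 5 with the term for the name series and 5 in replicates 1 to 3, Lyz2 among them each time. They numbered 2 with a replicate block (Lyz2 and Cd63), 2 in replicates 4 and 5 (Clta and Lyz2), and 1 to 5 leaving out single libraries. In astrocytes they numbered 2 with DESeq2, 1 under the looser filter and 1 with a replicate block, Lyz2 both times, and 2 with all 20 libraries fitted together. For the difference between cell types they numbered 6 with DESeq2 and 0 with at least 10 counts in every library. Except where stated earlier, the share of all genes called in the same alternative is not given. These counts are therefore not read as results about the lysosomal genes. Labels do not say that a replicate number marks a shared source, and the numbers were not taken as pairs: same-numbered deviations correlated at -0.0757 to 0.0832 in microglia and at -0.00656 to 0.490 in astrocytes, where 4 of 5 numbers were over 0.1 and 3 of 5 correlated best with their own. With the replicate block 11 genes in all were called in astrocytes, against 1 without it; between the cell types Gaa (-0.60) was not called and Tfeb (0.64) was.

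Signs changed among log2 fold changes that were not called, and the cause was not tested. Atp6v0d1 in microglia was -0.16 in replicates 1 to 3 and up to 0.56 over its other alternatives. In astrocytes Tfeb was -0.24 in replicates 4 and 5 and -0.15 to 0.24 leaving out single libraries. Tfe3 was -0.020 in replicates 1 to 3 and -0.063 to 0.15 leaving out single libraries. Lamp1 in astrocytes was -0.030 under the looser filter, -0.020 with all 20 libraries, -0.019 with FPI libraries 2 and 5 summed, -0.22 in replicates 4 and 5, and -0.093 to 0.072 leaving out single libraries. For the difference between cell types Tfeb was -0.31 without the astrocyte libraries of the 3 shared animals, -0.15 without astrocyte replicates 4 and 5, and -0.069 to 0.30 leaving out single libraries. Mitf was -0.20 and -0.16 in the same settings and -0.10 to 0.21 leaving out single libraries. Depth limits the genes with few reads, and 5 libraries a group leave a 95% interval of -0.40 to 0.42 for Lamp1 in astrocytes.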
